A study of Homo sapiens with 6 samples.

Results

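CITED2 and 9 genes of the machinery that sets the activity of hypoxia-inducible factor (HIF) were followed in RCC4 cells with and without inflammatory cytokines. The 10 genes are CITED2, the HIF subunits HIF1A, EPAS1 and ARNT, the oxygen-sensing regulators VHL, EGLN1, EGLN2 and EGLN3, and the coactivators EP300 and CREBBP. They are 10 of the 61541 genes listed in each count file, and all 10 were found by identifier. CITED2 was chosen by its lower level in cytokine-treated libraries, the comparison described here, and the others were listed around it for their place in the pathway with results of that comparison known. Their values are therefore given as a description, with no p-value, and the count of members called is printed beside that over all genes without being read as a result.

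RCC4 is an established human clear cell renal carcinoma line, known for lacking functional VHL protein. There were 3 untreated libraries and 3 libraries from cells exposed for 24 h to interferon gamma (IFNγ, 1000 U/mL) with tumour necrosis factor (TNF, 25 ng/mL). The labels call the libraries biological replicates, each harvested from 3 flasks, and name no vehicle for the untreated cells. Every culture was this same line in complete DMEM. RNA was read by direct RNA nanopore sequencing, in which the poly(A) RNA strand itself passes through the pore from its 3′ end.

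HIF is a pair of an oxygen-regulated alpha subunit, encoded by HIF1A or EPAS1, and the constitutive partner ARNT. The prolyl hydroxylases encoded by the EGLN genes mark the alpha subunit when oxygen is present, and the VHL protein, as part of a ubiquitin ligase, then directs it to the proteasome. HIF that escapes this binds hypoxia response elements and recruits p300 (EP300) and CBP (CREBBP), while CITED2 binds the same domain of these coactivators and competes with the alpha subunit for it. Loss of VHL function, common in clear cell renal carcinoma, leaves HIF alpha proteins stable at normal oxygen. All values below are RNA levels and do not measure these proteins.

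Because CITED2 is known as a HIF target as well as an inhibitor, promoters were searched for ACGTG, a form of the hypoxia response core. The search covered both strands of the promoter windows of RefSeq (GRCh38.p14, 250 bases before to 50 after each start). Other forms of the core were not searched. The table held 14 windows for 9 of the members, and 3 of these windows contained ACGTG, 1 each of CITED2, EGLN1 and EGLN2. Across all 34943 windows of that length, 21.4% contained it. The 250 bases before the outermost CITED2 start (chr6:139374649-139374898, minus strand) are shown because CITED2 is the member with the largest difference, and the 30 bases around the core are shown for the other 2 genes (EGLN1, chr1:231422283-231422312, minus strand; EGLN2, chr19:40799130-40799159, plus strand). Capitals mark ACGTG, and where both strands match it the 2 matches overlap as CACGTG.
CITED2: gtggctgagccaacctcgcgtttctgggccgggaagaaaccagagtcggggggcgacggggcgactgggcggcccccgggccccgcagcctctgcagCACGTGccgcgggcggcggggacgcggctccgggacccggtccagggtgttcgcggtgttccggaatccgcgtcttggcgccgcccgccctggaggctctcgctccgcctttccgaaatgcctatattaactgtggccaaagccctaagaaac
EGLN1: gggccgtggtgtACGTGcagagcgcgcaga
EGLN2: gcggggcgcggtCACGTGcccaccgggcga

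The CITED2 matches begin 153 and 152 bases before the start site, those of EGLN2 49 and 48 bases before it, and that of EGLN1 13 bases before it. The gamma interferon activation site, TTCNNNGAA on both strands, was in none of the 14 member windows and in 7.66% of all windows. The interferon-stimulated response element, also searched on both strands, was likewise in none of the 14, against 3.57% of all windows. A match to the consensus NF-kappaB site was found in 3 of the 14 windows, 1 each of CITED2 (at a start inside the gene), ARNT and CREBBP, and in 11.3% of all windows. These matches are descriptions of letters in a short window.

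CITED2 (ENSG00000164442; GRCh38 chromosome 6, 139371807 to 139374648, minus strand) was the most abundant member in untreated cells. It had 747, 707 and 614 CPM (counts scaled to a common normalised library size) in untreated replicates 1, 2 and 3, from 2866, 2746 and 2715 counts. In treated replicates 1, 2 and 3 it had 153, 144 and 86.3 CPM, from 533, 640 and 304 counts. Every treated library lay far below every untreated one, and treated replicate 3 was the lowest. The means were 689 ± 68.3 and 128 ± 36.2 CPM (SD, n = 3 each), a fitted log2 ratio of treated to untreated cells of -2.43 (SE 0.24), or 5.39 times lower. Leaving out any 1 library gave values from -2.58 to -2.21. In such bulk samples, fewer cells with the transcript and less transcript per cell cannot be told apart.

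**Figure D1:**
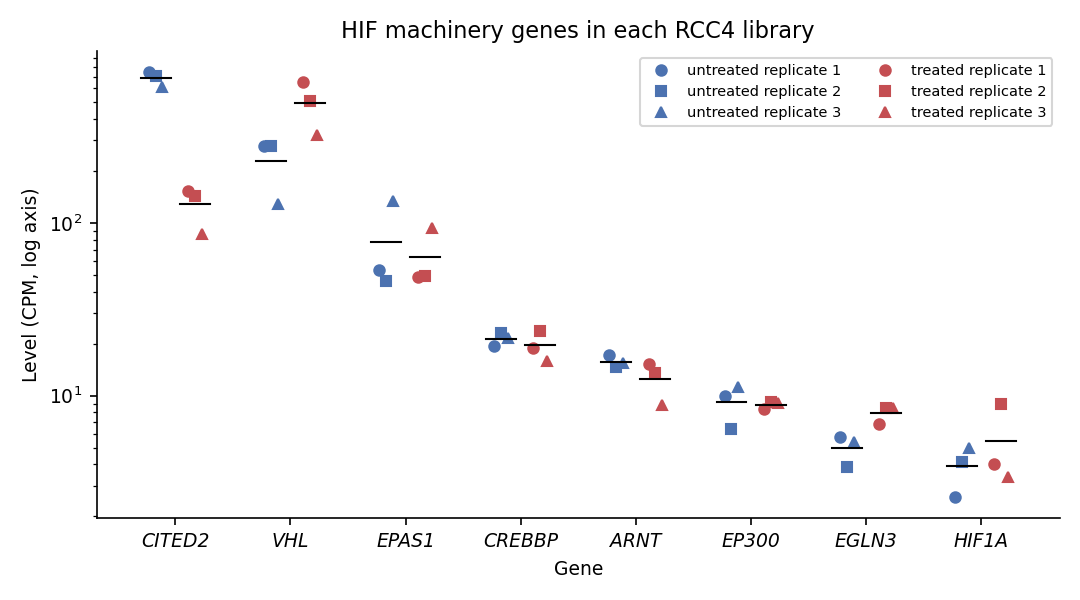
Level in CPM on a log axis of the 8 members that passed the low-count filter, for each of 3 untreated (blue) and 3 treated (red) libraries; symbols mark the replicate number and lines the group mean. CITED2 lies at 614 to 747 CPM in untreated and 86.3 to 153 CPM in treated libraries, VHL is separated in the opposite direction, and EPAS1 is high in untreated replicate 3.

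Across the members, 8 of 10 passed the filter on low counts. A gene was called where the quasi-likelihood test of edgeR, adjusted by Benjamini-Hochberg over all 10067 genes tested, gave a p under 0.05. Of the 8 members 1 was called, and of all genes 819 (8.14%), 562 higher (5.58%) and 257 lower (2.55%). The called member was CITED2, which was chosen for this difference, so nothing is read from the count. Groups did not overlap in CPM for 3 members, CITED2 downward and VHL and EGLN3 upward. Over all genes tested, 25.9% did not overlap, 13.9% upward and 11.9% downward. The median log2 ratio of the 8 members was -0.09, beside -0.03 for all genes tested.

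VHL (ENSG00000134086; chromosome 3, 10141778 to 10153667, plus strand), which encodes the substrate-recognition subunit of the ligase, was the second most abundant member in untreated cells. Its untreated levels were 279, 277 and 128 CPM in replicates 1, 2 and 3. Treated levels were 657, 509.8 and 321 CPM. Replicate 3 was the lowest library of each group. The groups did not overlap, and the nearest libraries were treated replicate 3 and untreated replicate 1. The means were 228 ± 86.9 and 496 ± 169 CPM (SD, n = 3 each), a log2 ratio of 1.12 (SE 0.34). It was 0.82 without untreated replicate 3 and 1.36 without treated replicate 3. An unnamed gene on the opposite strand (ENSG00000287086) covers 24.0% of VHL's exonic bases and had 0 counts in all 6 libraries.

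CITED2 and VHL changed places in the order of the members. The ratio of their counts per kilobase inside a library needs no scaling between libraries, and it was 5.10, 4.86 and 9.15 in the untreated libraries in order of replicate. In treated replicates 1, 2 and 3 it was 0.445, 0.538 and 0.513. The treated ratios were close to each other (0.499 ± 0.0480), whereas untreated replicate 3 stood above the other untreated libraries (6.37 ± 2.41; SD, n = 3 each). Against CREBBP, which encodes a coactivator that the CITED2 protein binds, the ratio was 234, 184 and 171 in untreated and 48.8, 36.5 and 32.8 in treated libraries. Its means were 196 ± 33.2 and 39.3 ± 8.37 (SD, n = 3 each). Because a direct RNA molecule gives at most 1 count whatever its length, these per-kilobase ratios are not ratios of molecules. Division by exonic length (CITED2 2563, VHL 4890 and CREBBP 15479 bases) raises each ratio by the same factor in every library. In untreated replicate 1, for example, the counts themselves were 2866 for CITED2 and 74 for CREBBP.

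**Figure D2:**
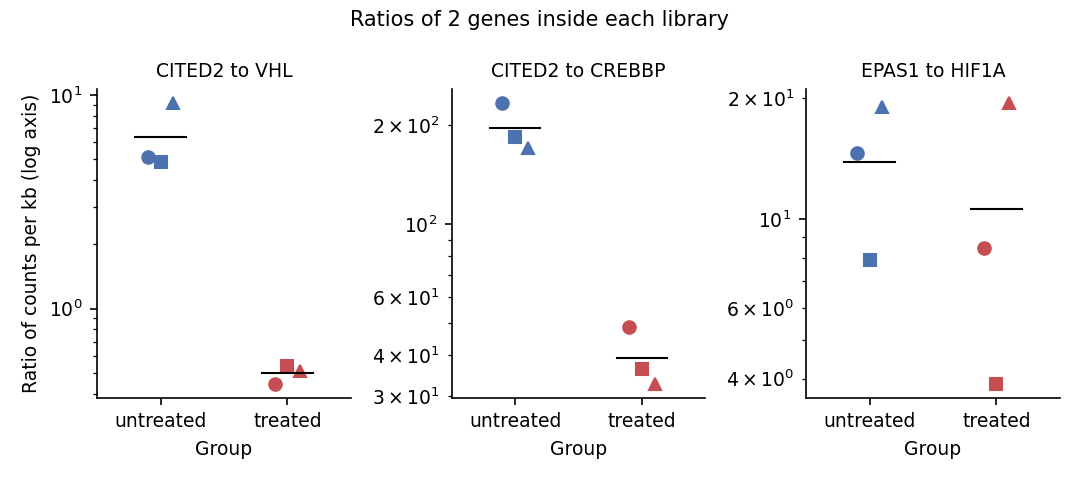
Ratio of counts per kilobase of exonic length of 2 genes inside each library, on log axes, with symbols for replicates (circle 1, square 2, triangle 3) and lines for group means. CITED2 to VHL lies between 4.86 and 9.15 in untreated and between 0.445 and 0.538 in treated libraries, while the EPAS1 to HIF1A ratios of the groups overlap.

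Of the alpha subunits, EPAS1 (chromosome 2, 46293667 to 46386697), which encodes HIF2α, was above HIF1A in every library. EPAS1 had 53.7, 46.1 and 134 CPM in untreated replicates 1, 2 and 3. It had 48.3, 49.4 and 93.7 CPM in treated replicates 1, 2 and 3. The groups overlapped, and replicate 3 was the highest library in both. The means were 77.9 ± 48.6 and 63.8 ± 25.9 CPM (SD, n = 3 each), with a log2 ratio of -0.29 (SE 0.43). The sign rested on 1 library, since the value was 0.35 without untreated replicate 3.

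HIF1A (chromosome 14, 61695513 to 61748259), which encodes HIF1α, was near the low end of what was measured. It had 10, 16 and 22 counts in untreated replicates 1, 2 and 3, or 2.61, 4.12 and 4.97 CPM. Treated replicates 1, 2 and 3 held 14, 40 and 12 counts, or 4.03, 8.98 and 3.41 CPM. Treated replicate 2 stood above the other 5 libraries, which overlapped between the groups. The log2 ratio was 0.50 (SE 0.47) and became -0.02 without treated replicate 2. No base of its last 500 exonic bases is shared with a gene on the same strand, unlike EGLN1 and EGLN2 below. Its antisense gene HIF1A-AS3 had between 4 and 12 counts per library, and HIF1A-AS1 at most 2. Per kilobase, EPAS1 was 14.6, 7.90 and 19.0 times HIF1A in untreated and 8.48, 3.89 and 19.4 times HIF1A in treated libraries, with overlapping groups. These are not ratios of molecules either, and division by exonic length (EPAS1 7291, HIF1A 5151 bases) lowers them. In untreated replicate 1, for example, the counts were 206 for EPAS1 and 10 for HIF1A.

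ARNT (chromosome 1, 150809713 to 150876708), the shared partner of both alpha subunits, had 17.2, 14.7 and 15.4 CPM in untreated replicates 1, 2 and 3. Treated levels were 15.2, 13.5 and 8.80 CPM in the same order. Treated replicate 1 lay within the untreated range, while treated replicates 2 and 3 lay below it. Treated replicate 3 was the lowest, as it was for CITED2. The log2 ratio was -0.33 (SE 0.27), and -0.13 without treated replicate 3.

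For the coactivator genes the groups overlapped and the ratios were small beside their errors. CREBBP (chromosome 16, 3725054 to 3880713) had 19.3, 23.2 and 21.7 CPM in untreated and 19.0, 23.8 and 15.9 CPM in treated replicates 1, 2 and 3, a log2 ratio of -0.13 (SE 0.23). EP300 (chromosome 22, 41092592 to 41180077) had 9.91, 6.43 and 11.3 CPM in untreated and 8.34, 9.21 and 9.09 CPM in treated replicates 1, 2 and 3, a log2 ratio of -0.06 (SE 0.30). The CREBBP value was 0.01 without treated replicate 3, and the EP300 value was 0.11 without untreated replicate 3 and 0.02 without untreated replicate 1.

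Among the hydroxylase genes, EGLN3 alone passed the filter. EGLN3 encodes PHD3 and is itself known as a HIF target (chromosome 14, 33924227 to 34462774). It had 5.74, 3.86 and 5.43 CPM in untreated replicates 1, 2 and 3, from 22, 15 and 24 counts. Treated replicates 1, 2 and 3 had 6.90, 8.53 and 8.52 CPM, from 24, 38 and 30 counts. All treated libraries were above all untreated ones in CPM, although treated replicate 1 and untreated replicate 3 each held 24 counts. The means were 5.01 ± 1.01 and 7.99 ± 0.936 CPM (SD, n = 3 each), with a log2 ratio of 0.67 (SE 0.31) that ran from 0.52 to 0.80 when single libraries were left out. Its antisense gene EGLN3-AS1 had 0 counts in all 6 libraries. SPTSSA, a protein-coding gene inside the EGLN3 interval on the same strand, covers none of EGLN3's exonic bases. It had 65, 91 and 169 counts in untreated and 59, 112 and 69 counts in treated replicates 1, 2 and 3.

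EGLN1, which encodes PHD2, the main oxygen sensor for HIF alpha, had 2, 2 and 1 counts in untreated and 5, 1 and 1 counts in treated replicates 1, 2 and 3. EGLN2, which encodes PHD1, had 0, 0 and 1 counts without and 2, 0 and 1 counts with cytokines. At these counts no difference was detectable, since the limit set by a count of 0, taken as 3 counts, was 0.681 to 0.827 CPM depending on the library. Both genes share their 3′ ends with another annotated gene on the same strand. For EGLN1 (chromosome 1, 231363751 to 231422287) exons of ENSG00000287856, a longer gene model without a symbol, cover 90.8% of the last 500 exonic bases. For EGLN2 (chromosome 19, 40798996 to 40808434) the figure was 96.8%, with the readthrough gene RAB4B-EGLN2 among the genes that overlap it. ENSG00000287856 and RAB4B-EGLN2 each had 0 counts in all 6 libraries.

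The same property was then measured for all protein-coding genes. Of the 18356 genes sharing none of their last 500 exonic bases, 56.1% had a mean of at least 1 CPM. This held for 32.1% of the 682 genes that shared some but under 90%. Of the 840 genes that shared at least 90%, 66 (7.86%) reached that level, and their median was 0 CPM. The other 8 members all shared 0% of these bases. The part of this overlap in the low counts of EGLN1 and EGLN2 was not tested.

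**Figure D3:**
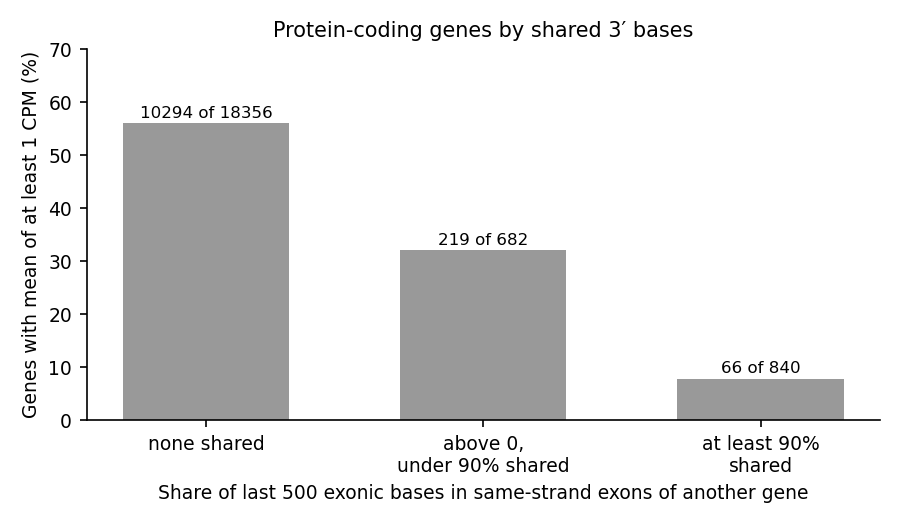
Percentage of protein-coding genes reaching a mean of 1 CPM over the 6 libraries, by the share of their last 500 exonic bases that lies in same-strand exons of another gene; numbers above the bars give genes at that level of all genes in the class. EGLN1 (90.8%) and EGLN2 (96.8%) fall in the class at the right, where 66 of 840 genes reach 1 CPM, and the other 8 members fall in the class at the left.

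Levels were compared between genes per length, as CPM per kilobase of exonic length. In untreated cells CITED2 had 269 ± 26.7 CPM per kilobase and VHL 46.7 ± 17.8. EPAS1 followed with 10.7 ± 6.67, ARNT with 2.44 ± 0.203 and CREBBP with 1.38 ± 0.126 CPM per kilobase. Each of these was separated from its neighbour in the order in every untreated library. EP300, HIF1A and EGLN3 had 0.788 ± 0.215, 0.757 ± 0.233 and 0.680 ± 0.137 CPM per kilobase and overlapped with their neighbours (SD, n = 3 throughout).

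In treated cells VHL came first with 101 ± 34.5 CPM per kilobase and CITED2 second with 49.9 ± 14.1, with no overlap between them. EPAS1 stayed next at 8.75 ± 3.55. ARNT, CREBBP, EGLN3 and HIF1A followed at 1.94 ± 0.516, 1.26 ± 0.257, 1.08 ± 0.127 and 1.06 ± 0.593 CPM per kilobase, each overlapping with the next, and EP300 had 0.759 ± 0.0400 (SD, n = 3 throughout). Among all 61541 listed genes ranked on this scale, CITED2 went from place 227 to 993 and VHL from 993 to 561. With direct RNA reads a molecule gives at most 1 count whatever its length. By CPM alone, 6 of the 10 members kept their untreated place and ARNT and CREBBP, and HIF1A and EGLN3, exchanged theirs.

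Untreated replicate 3 differed from the other untreated libraries in several members. Its EPAS1 level was 2.68 times the mean of replicates 1 and 2, its HIF1A level 1.48 times and its EP300 level 1.38 times. Its VHL level was 0.460 times that mean, and those of CITED2, ARNT and CREBBP were 0.845, 0.965 and 1.02 times. The same library had the highest count-weighted exonic length, 4484 bases, beside 4204 to 4376 bases in the other 5, and the most genes with a count (15604, beside 14798 to 15391). The part of these library properties in the members' values was not tested.

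**Figure D4:**
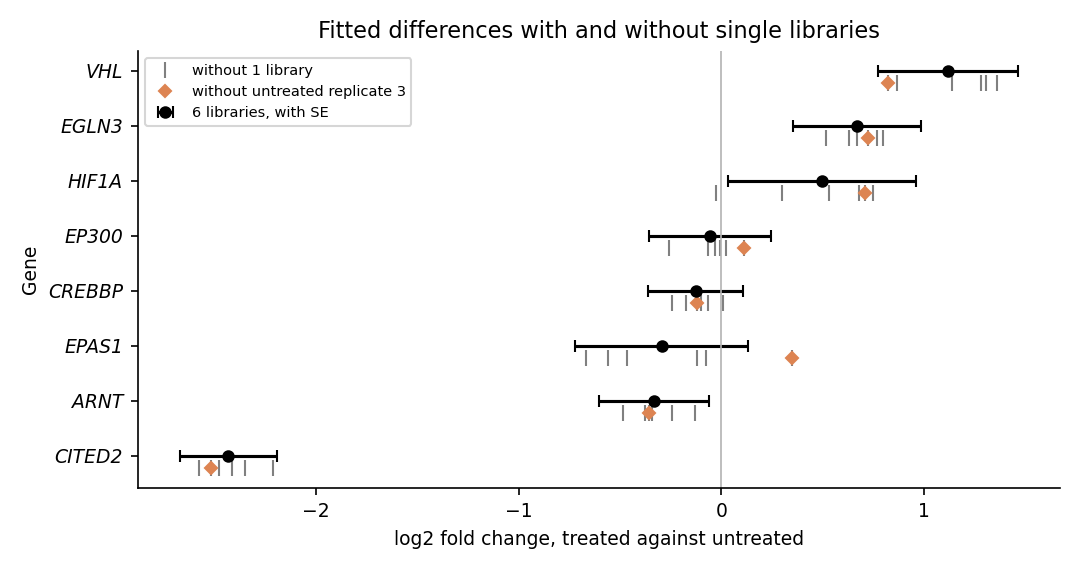
Fitted log2 ratio of treated against untreated cells for the 8 members that passed the filter (black, with SE), with the values obtained without each single library (grey ticks; orange diamond without untreated replicate 3). CITED2 stays between -2.58 and -2.21, and EPAS1, HIF1A, EP300 and CREBBP each have at least 1 value on the other side of 0.

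The profiles most like that of CITED2 were found by the root mean square distance between mean-centred log2 CPM values over the 6 libraries, among 6743 other genes whose mean level was 10 CPM or more. The 5 nearest were LIPC (hepatic lipase, distance 0.20), AMPD2 (an AMP deaminase, 0.23), HES1 (a repressor known from Notch signalling, 0.23), FGFR4 (a receptor for fibroblast growth factors, 0.24) and SLC7A5 (an amino acid transporter, 0.26). Their log2 ratios were -2.23, -2.04, -2.55, -2.49 and -2.0. SLC7A5, the most abundant by CPM, went from 450.3 ± 39.9 to 112 ± 30.1 CPM and AMPD2 from 128 ± 6.47 to 31.0 ± 8.78 CPM (SD, n = 3 each). These genes were picked for their likeness, so the values carry no test. A non-coding gene without a symbol that spans CITED2 on the opposite strand (ENSG00000226571; chromosome 6, 139271362 to 139667284) covers none of its exonic bases. Untreated libraries held 9, 17 and 10 of its counts and treated libraries 2, 6 and 0, too few to pass the filter.

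The other CITED genes differed from CITED2. CITED4, whose product also binds p300 and CBP, rose, with means of 6.62 ± 0.989 and 18.6 ± 1.73 CPM (SD, n = 3 each) and a log2 ratio of 1.48 (SE 0.25, edgeR adjusted p 0.00675). Untreated libraries held 22, 25 and 34 counts of it and treated libraries 69, 74 and 68. Per kilobase and in CPM it remained below CITED2 in every library. CITED1 had 0 counts in all 6 libraries. In the list of CITED family genes, coactivators and AP-2 partners, 9 of 13 genes were tested, CITED4 was the 1 gene called, beside 8.14% called over all genes tested. The median log2 ratio of the 9 was -0.24, beside -0.03 over all genes tested. This list and the gene lists below were chosen with earlier results of these data known, which limits what their adjusted p-values show.

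The VHL protein works in a complex with elongins, a cullin and a RING protein. All 4 partner genes were tested and none was called, beside 8.14% called over all genes tested. ELOB had 755 ± 96.8 and 641 ± 143 CPM, ELOC 168 ± 16.3 and 169 ± 26.3, and RBX1 248 ± 33.8 and 299 ± 12.1 CPM in untreated and treated cells (SD, n = 3 each). CUL2 varied more within groups than between them, with 14, 24 and 92 counts without cytokines and 30, 99 and 36 with them. Of 15 other genes that modify HIF alpha or set its turnover, all were tested and none was called, where 8.14% of all genes tested were, with log2 ratios from -0.81 (P4HTM, a membrane-bound hydroxylase) to 0.63 (KLHL20, a ubiquitin ligase adaptor). HIF1AN, the asparagine hydroxylase that blocks coactivator binding to HIF alpha, had 30.9 ± 2.01 and 31.3 ± 0.511 CPM, a log2 ratio of 0.02 (SE 0.19).

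Among 5 further genes of the bHLH-PAS family, to which the HIF subunits belong, HIF3A had 0 counts in all libraries and 1 of the 4 tested was called. BMAL2, a clock-related partner protein, rose, with means of 12.8 ± 5.14 and 40.7 ± 7.70 CPM (SD, n = 3 each) and a log2 ratio of 1.66 (SE 0.32, edgeR adjusted p 0.0116). It was not past the threshold without untreated replicate 2 (edgeR adjusted p 0.0592). ARNT2, the closest relative of ARNT, had 6.22 ± 1.11 and 8.10 ± 1.31 CPM. Over these 4 lists together, 2 of 32 tested genes were called, both higher, a share near the 8.14% called over all genes tested. The median log2 ratio over the 32 was -0.01, beside -0.03 for all genes tested.

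**Figure D5:**
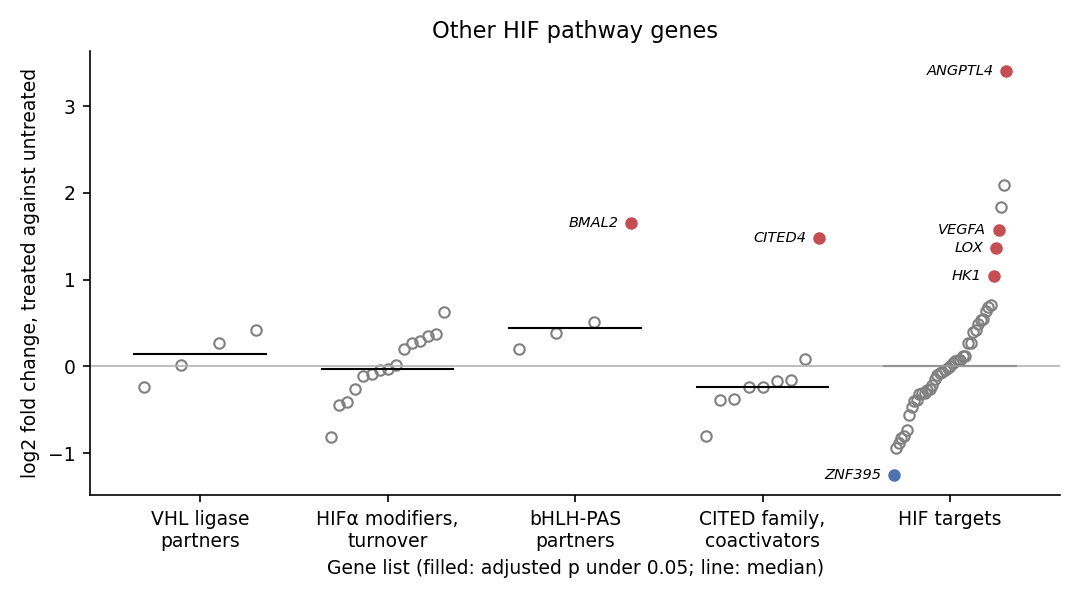
Fitted log2 ratio of treated against untreated cells for every tested gene of 5 lists of HIF pathway genes, with called genes filled and named and a line at each list's median. Most genes lie near 0, with 7 genes called, from ZNF395 at -1.25 to ANGPTL4 at 3.40.

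Of 51 HIF target genes on the list, 45 were tested, and 4 of these were called higher and 1 lower, beside 5.58% higher and 2.55% lower over all genes tested. The median log2 ratio was 0.00, beside -0.03 for all genes tested. Because the list was chosen with earlier results of these data known, the adjusted p-values below describe the differences. ANGPTL4, a secreted regulator of lipoprotein lipase, rose, with means of 1.92 ± 0.824 and 20.5 ± 9.02 CPM (SD, n = 3 each). Untreated libraries held 11, 6 and 6 of its counts. Its log2 ratio was 3.40 (SE 0.44, edgeR adjusted p 0.00149). VEGFA, the angiogenic growth factor, had 21.1, 24.4 and 17.9 CPM in the untreated and 51.2, 60.6 and 77.0 CPM in the treated libraries and rose by a log2 ratio of 1.57 (SE 0.23, edgeR adjusted p 0.00302). The matrix cross-linking enzyme gene LOX and the hexokinase gene HK1 rose with log2 ratios of 1.37 and 1.04. The called lower gene was ZNF395, a transcription factor gene, at -1.25. LOX was not past the threshold without untreated replicate 2 or treated replicate 2 (edgeR adjusted p 0.0777 and 0.05004), nor HK1 without treated replicate 1 or 3 (0.0652 and 0.0683), nor ZNF395 without any 1 treated replicate (0.0591, 0.0973 and 0.0871). The list had 3 called genes, all higher, without treated replicate 2 or without treated replicate 3.

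Several classical targets that are widely used as marks of HIF activity were not called. CA9, a carbonic anhydrase, had 38.5 ± 7.49 and 38.0 ± 6.96 CPM, a log2 ratio of -0.02 (SE 0.23). The glycolytic genes LDHA and PGK1 had log2 ratios of -0.14 (SE 0.14) and 0.08 (SE 0.15). SLC2A1, the glucose transporter GLUT1, had 583 ± 21.6 and 396 ± 77.3 CPM (SD, n = 3 each) and did not pass the threshold (log2 ratio -0.56, SE 0.18, edgeR adjusted p 0.115). ADM, which encodes adrenomedullin, had 48.5, 40.7 and 79.8 CPM in untreated and 101, 115 and 504 CPM in treated replicates 1, 2 and 3, so its log2 ratio of 2.09 leaned on treated replicate 3 and was not past the threshold (edgeR adjusted p 0.0700).

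The libraries held between 3626000 and 4406296 counts. All 8 genes of a short list of IFNγ and TNF targets were called higher in the treated libraries, beside 5.58% of all genes tested. Among them was IRF1 (33.8 ± 5.93 to 1325 ± 156 CPM; SD, n = 3 each). The list was chosen with earlier results of these data known, so its count describes the treatment and is no test. All 12 renal carcinoma epithelial markers had counts in these libraries. Of 6 blood cell markers, which are leukocyte genes and the red cell gene HBB, 5 were at 0 in every library. That list summed to at most 0.288 CPM. All 4 endothelial markers and 4 of 5 fibroblast markers were at 0, the exception being COL1A1, with 24.4 to 62.9 CPM.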

How the data were processed

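The deposited values are counts of reads per gene, which the authors obtained by running featureCounts 2.0.1 with its setting for long reads, per the file headers, over exons of Ensembl release 105 (GRCh38), strand-specifically. The headers set neither the option to count multi-mapping reads nor the option to count reads that overlap several genes. The submitters' processing notes also name minimap2 2.24, SAMtools 1.16 and featureCounts 2.0.0. Alignment names in the headers contain "dmso" for untreated and treated libraries alike, and groups were taken from the sample titles. Counts were tested with edgeR 4.0.16 (TMM, filterByExpr, quasi-likelihood F test, Benjamini-Hochberg adjustment over all genes tested, threshold 0.05). CPM used TMM-normalised library totals, and SE was taken from the log2 ratio and its F statistic (ratio over root F). Profile distances used log2 CPM with a prior count of 2. The limit set by a count of 0 covers counting error only. Symbols came from a name table holding 61369 of 61541 identifiers and from GENCODE 29 for 159 more. The fits were tested on simulated data. Alternatives were other scalings, 2 other filters, DESeq2 1.42.0, limma 3.58.1 voom, a replicate block and leaving out each library. Named genes were the members, the called genes of each list with the largest change (others only with values), genes overlapping a member and the 5 profiles nearest CITED2. Members and lists were chosen with earlier results of these data known.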

Additional observations from a re-analysis of the deposited data

How the results depend on the processing

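Of the recomputed values, 228 were classed as the same, 14 as moved and 8 as weaker, meaning that a call was lost. A member's log2 ratio was the same if it moved by less than the spread between replicates. This includes the changes of sign given above for EPAS1, HIF1A, EP300 and CREBBP. Other genes were the same if they kept their call. Counts were the same if near the main count, so that 1178 called genes beside 819 were classed as the same. The count of called genes (819 of 10067 tested) was 1328 of 19158 when every gene with a count was tested. Without single libraries it ran from 455 (without treated replicate 3) to 1178 (without untreated replicate 3), with 465 without untreated replicate 2. Scaling to library totals shifted the median log2 ratio over all genes to -0.13 (from -0.03) and gave 485 higher and 364 lower genes, beside 562 and 257. The members called numbered 2 in place of 1, CITED2 and VHL, with DESeq2 (2 of 8, beside 968 of 10067 genes). They were also 2 when every gene with a count was tested (2 of 10, beside 1328 of 19158 genes). The count of called HIF targets (5 of 45) was 9 of 49 when every gene with a count was tested and ran from 3 to 7 without single libraries. That of the other pathway genes (2) was 1 without untreated replicate 2, and ran from 1 to 2. With a minimum mean of 1 CPM in place of 10, 3 of the 5 profiles nearest CITED2 were shared, and ordering by CPM alone left 6 members in place. Over genes, the deviations of same-numbered libraries correlated at 0.65, -0.0037 and 0.37 for replicates 1, 2 and 3. Treated replicate 2 correlated best with untreated replicate 3 (0.41). The main fit used no pairing, and whether same-numbered libraries share an effect was not tested. With the replicate block 1513 of 10067 genes, 13 of 45 HIF targets and 2 of 8 members (CITED2 and VHL) were called. The block lowered the SE of VHL from 0.34 to 0.18 and that of EPAS1 from 0.43 to 0.20. The SEs of EGLN3, EP300 and CREBBP rose. HIF1A, EGLN3, EGLN1 and EGLN2 had at most 40 counts in any library, which limits the precision of their values.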
